A study of Homo sapiens with 26 samples.

Results

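Binding of FOXA1 was compared with binding of FOXA1nhaa, a FOXA1 variant known from other work to carry changed residues in the helix that reads the bases of the DNA. All 155652 peaks of the FOXA1 list and all 105591 peaks of the FOXA1nhaa list were used, 261243 of the 399566 peaks in the 5 full lists of the series. A FOXA1 peak was called kept when at least 1 bp of it lay in a FOXA1nhaa peak, and lost otherwise. A FOXA1nhaa peak was called shared when it met a FOXA1 peak, and new otherwise. Of the FOXA1 peaks, 61836 (39.7%) were kept and 93816 were lost. Of the FOXA1nhaa peaks, 61634 were shared and 43957 (41.6%) were new.

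Both proteins were fused to the HALO tag, a protein label, and were mapped by chromatin immunoprecipitation and sequencing with one antibody to that tag. Each was produced ectopically for 48 hours in BJ, an established fibroblast line from human foreskin. The labels list 2 ChIP and 2 input libraries for each construct, and 1 peak list per construct was analysed. With 1 list on each side there is no replicate spread, so nothing was tested. Brackets hold 95% Wilson intervals for shares of peaks, which carry the counting error alone, and how many reads lie behind the lists is unknown. The protein level of either construct is not given in the sources used here, so a lower level of the variant and a weaker hold on DNA cannot be told apart. The labels give the letters nhaa without naming the residues, and the peak lists hold no expression values against which the fibroblast label could be checked.

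FOXA1 is a forkhead transcription factor. Its winged-helix domain lays a recognition helix in the major groove, where side chains read the bases, while other residues hold the phosphate backbone. FOXA proteins are known as pioneer factors, which can reach their sites in closed chromatin, and they act at enhancers of liver, breast and prostate genes.

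Sequences of the strongest sites with a forkhead core show what the comparison is about. They are the central 200 bp of the highest-scoring kept and lost site that held a core, where FOXA1 peaks of one peak name were joined and a lost site had no kept peak, on the plus strand of GRCh37, the reference matching the lists' hg19 coordinates. Capitals mark the core, written TGTTTAC or TATTTAC and searched in either orientation.
Kept peak, chr1:162388045-162388244: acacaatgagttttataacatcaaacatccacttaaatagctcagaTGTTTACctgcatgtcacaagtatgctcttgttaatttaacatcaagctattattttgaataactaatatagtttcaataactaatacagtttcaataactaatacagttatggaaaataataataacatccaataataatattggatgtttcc
Lost peak, chr12:76957189-76957388: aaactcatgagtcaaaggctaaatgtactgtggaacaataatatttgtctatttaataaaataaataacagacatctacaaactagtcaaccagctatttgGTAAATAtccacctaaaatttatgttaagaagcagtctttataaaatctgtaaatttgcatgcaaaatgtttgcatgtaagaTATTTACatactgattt
The kept site lay 6217 bp from the start of SH2D1B, had a score of 1082 and was 542 bp wide. The lost site lay inside a long noncoding RNA gene, 3700 bp from the start of OSBPL8, which encodes an oxysterol-binding protein. It held 2 cores and an AP-1 site, had a score of 848, and the nearest FOXA1nhaa peak was 506 bp away. Scores and fold enrichments are the authors' own values for single peaks and describe or rank peaks within a list only.

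Some strong FOXA1nhaa peaks lay on repeated sequence, as the central 200 bp of the highest-scoring shared and new peaks with a repeated word show. These were chosen after the values were seen. Capitals mark the commonest word of 12 bases, and both windows are from the plus strand of GRCh37.
Shared peak, chr1:236656748-236656947: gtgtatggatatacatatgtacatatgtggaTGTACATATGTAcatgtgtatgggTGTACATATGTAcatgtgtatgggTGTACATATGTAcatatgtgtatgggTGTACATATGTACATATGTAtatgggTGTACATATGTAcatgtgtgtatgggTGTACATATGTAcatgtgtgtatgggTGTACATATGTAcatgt
New peak, chr13:109406423-109406622: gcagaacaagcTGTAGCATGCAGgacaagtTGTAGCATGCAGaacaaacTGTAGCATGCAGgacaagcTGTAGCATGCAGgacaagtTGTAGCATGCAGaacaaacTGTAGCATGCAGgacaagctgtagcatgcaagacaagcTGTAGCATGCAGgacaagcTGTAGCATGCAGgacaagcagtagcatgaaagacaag
The shared peak had the highest score of the FOXA1nhaa list, 1409, with 31.3-fold enrichment. Its word TGTACATATGTA occurred 8 times in the window, and the nearest protein-coding start, of LGALS8, lay 24452 bp away. The new peak, in an intron of the unconventional myosin gene MYO16, had a score of 869 and the highest fold enrichment of all new peaks, 26.6. Its word TGTAGCATGCAG also occurred 8 times.

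The peaks that the variant kept were the strong and wide ones. The median score was 159 in kept FOXA1 peaks and 107 in lost peaks, and the median width was 385 bp and 261 bp. Of FOXA1 peaks in the lowest quintile by score and at most 200 bp wide, 21.7% (21.1 to 22.3) were kept. Of those in the highest quintile and over 600 bp wide, 79.8% (79.0 to 80.6) were kept. Each measure went with the share kept at a fixed value of the other. In the highest quintile by score, the kept share went from 29.4% (26.1 to 32.8) at widths up to 200 bp to that 79.8%. Among peaks over 600 bp wide it was 60% (52.6 to 67.0) in the lowest quintile and 54.98% (51.1 to 58.8) in the next one. A wider peak also meets another peak more easily, and the part of that in the result was not tested.

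**Figure D1:**
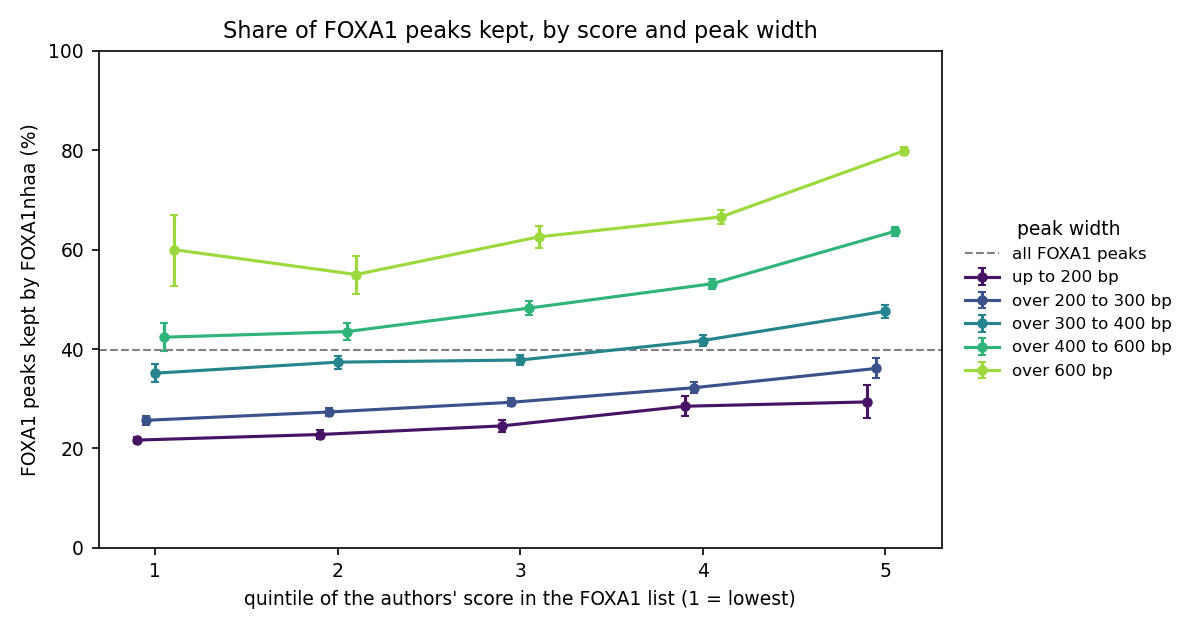
Share of FOXA1 peaks kept by FOXA1nhaa (percent) in each quintile of the FOXA1 list by the authors' score, with a line for each class of peak width and 95% Wilson intervals. The share is higher to the right and for wider peaks, from 21.7% to 79.8%, and the dashed line is the 39.7% of all FOXA1 peaks.

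Few peaks lay close to the limit of 1 bp between kept and lost. The classes still depended on the definition of overlap, with 33.4% kept when centres had to lie within 200 bp. A kept peak shared a median of 281 bp with FOXA1nhaa peaks, 82.6% of its own width. Only 1535 kept peaks (2.48%) shared under 50 bp, and 474 lost peaks (0.505%) lay within 50 bp of a FOXA1nhaa peak. The median distance from a lost peak to the nearest FOXA1nhaa peak was 4649 bp, and from a new peak to the nearest FOXA1 peak 4350 bp. Within 1000 bp of the other list lay 16.7% (16.4 to 16.9) of the lost and 16.1% (15.8 to 16.5) of the new peaks. In all, 19.3 Mb was covered by both lists, 35.5% of the bases in FOXA1 peaks and 45.04% of those in FOXA1nhaa peaks.

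New peaks were weaker than shared ones, but the strongest quintile still held many. Their median score was 82, compared with 97 for shared peaks, and their median fold enrichment 5.57, compared with 5.94. By quintiles of the −log10 q-value, from the lowest to the highest, new peaks made up 47.4%, 49.9%, 44.5%, 40.3% and 26.1% of the FOXA1nhaa list. The highest-scoring new peak at a protein-coding promoter lay 811 bp from the start of SPOPL, an adaptor of a ubiquitin ligase, with 16.2-fold enrichment and a FOXA1 peak 280 bp away. At promoters, the strongest FOXA1 site with no kept peak was that of MRE11, a gene of DNA double-strand break repair (score 626, 973 bp from a start), where a FOXA1nhaa peak lay 704 bp away. The highest-scoring FOXA1 site of which no peak was kept lay in an intron of STX8, a syntaxin gene, 25360 bp from any FOXA1nhaa peak, and had a score of 983. Single lost peaks reached a score of 1027 where another peak of the same name was kept.

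The peak names of the FOXA1nhaa list carried 4 prefixes, and the values differed between them. FOXA1_3 marked 100396 rows (95.1% of the list), FOXA1_5 marked 4184, FOXA1_4 marked 1004 and FOXA1_6 marked 7. No FOXA1_5 row overlapped a FOXA1_3 row. Of the FOXA1_5 rows, 94.7% (94.0 to 95.4) were also rows of the list of another variant, FOXA1rraa, with the same position and name. So were 37045 of the 100396 FOXA1_3 rows, so taking FOXA1_3 rows alone leaves rows of that list in. Over all prefixes 62.6% of shared and 6.06% of new peaks were such rows, and their part in the split was not tested. Of the FOXA1_5 rows, 10.3% (9.42 to 11.3) were new, compared with 42.8% (42.4 to 43.1) of the FOXA1_3 rows. Of the 100 highest-scoring shared peaks, 81 were FOXA1_5 rows. Counted with FOXA1_3 rows alone, 37.2% of FOXA1 peaks were kept.

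Most of the strongest shared peaks with a repeated word were FOXA1_5 rows, while the strongest new peaks with one were FOXA1_3 rows. A word of 12 bases occurred at least 3 times in the central window of 11.4% (10.4 to 12.4) of shared FOXA1_5 peaks and of 1.16% (1.08 to 1.25) of shared FOXA1_3 peaks. Over all tiles of 200 bp in the genome the share was 6.03%, so FOXA1_3 peaks had such words less often than the genome as a whole. Among the 100 highest-scoring shared peaks 45 held such a word, 42 of them FOXA1_5 rows, and among the 100 highest-scoring new peaks 6 did, all FOXA1_3 rows. Among the 100 highest-scoring kept FOXA1 peaks 5 did, and among the 100 highest-scoring shared FOXA1_3 rows also 5. FOXA1 peaks with a repeated word were kept less often than others, 31.2% (29.8 to 32.6) of 4053 compared with 39.96% (39.7 to 40.2), with a median score of 119 compared with 124. Of these repeat peaks 9.92% (9.04 to 10.9) were kept by a FOXA1_5 row alone, compared with 2.14% (2.07 to 2.22) of the others.

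The forkhead core was most frequent at the peaks the variant lost and least frequent at the peaks it gained. Within 100 bp of the centre, a core was found at 18.8% (18.6 to 19.1) of lost peaks, 17.2% (16.9 to 17.5) of kept peaks, 15.3% (15.0 to 15.5) of shared peaks and 11.3% (11.0 to 11.6) of new peaks. Of all 200 bp tiles of the genome, 7.29% held one. The order lost, kept, new held with a window of 100 bp (10.5%, 9.34% and 5.69%), with both other definitions of overlap, on chromosomes 1 to 22, for peaks of at least 100 bp and with FOXA1_3 rows alone. Within FOXA1_3 rows, the share was 14.6% (14.3 to 14.9) at shared and 11.1% (10.8 to 11.4) at new peaks. FOXA1_5 rows held a core in 25.5% (24.1 to 26.9) of shared and 25.1% (21.2 to 29.4) of new peaks.

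More cores went with a lower share kept, and so, by less, did 1 or 2 copies of the reversed letters described below. FOXA1 peaks without a core were kept in 40.2% (39.9 to 40.5) of cases, those with 1 core in 37.9% (37.3 to 38.5), with 2 cores in 36.0% (34.2 to 37.8) and with 3 or more in 31.4% (26.3 to 37.1). Median scores along the same order were 124, 126, 132 and 145.5, so the share kept was lower although scores were higher. Of the 2 spellings, TATTTAC carried this pattern. It was held by 12.4% of lost, 10.8% of kept and 6.42% of new peaks (4.37% of genome tiles), while TGTTTAC was held by 7.35%, 7.30% and 5.25% (3.11% of tiles). Peaks with 3 or more TATTTAC cores were kept in 22.7% (16.4 to 30.6) of 132 cases. The difference by core was seen at narrow peaks and was small at wide ones. At widths up to 200 bp, 20.5% (19.5 to 21.6) of peaks with a core and 23.49% (23.001 to 23.98) of those without were kept, and over 600 bp 73.9% (72.2 to 75.5) and 73.4% (72.7 to 74.2).

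The same letters reversed (CATTTGT or CATTTAT), which have the same base composition, gave a smaller spread. They were held by 20.2% of lost, 19.03% of kept and 15.4% of new peaks and by 12.3% of genome tiles. Against all tiles, which were not matched to the base composition of the peaks, the ratios were 1.64, 1.54 and 1.25. For the core they were 2.58, 2.36 and 1.55. FOXA1 peaks without the reversed letters were kept in 40.1% (39.8 to 40.4) of cases, and those with 1 copy in 38.3% (37.8 to 38.9). With 2 copies the share kept was 37.6% (35.8 to 39.3), and with 3 or more it was 39.6% (33.9 to 45.7). Looser forkhead words, made from the core by changing A to G in TGTTTGC and in TATTTGC or the final C to T in TGTTTAT and in TATTTAT, were in 43.5% of lost, 40.1% of kept and 29.0% of new peaks, and in 21.2% of tiles. Base composition differed between classes, with a median GC content of 32.0% in lost, 33.0% in kept, 34% in shared and 35.5% in new central windows. Below 35% GC lay 65458 of 93816 lost and 18244 of 43957 new windows. There a core was in 20.03% of lost, 18.4% of kept and 13.6% of new peaks and in 12.5% of tiles. The reversed letters were in 21.9% of lost, 21.1% of kept and 18.98% of new peaks there, and in 19.9% of tiles. At this GC content the reversed letters thus lay near the tiles, and below them at new peaks. At GC contents from 35% to 40%, a core was in 16.6% (16.1 to 17.1) of lost, 15.6% (15.0 to 16.1) of kept and 10.6% (10.1 to 11.1) of new peaks, and in 8.44% of tiles.

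**Figure D2:**
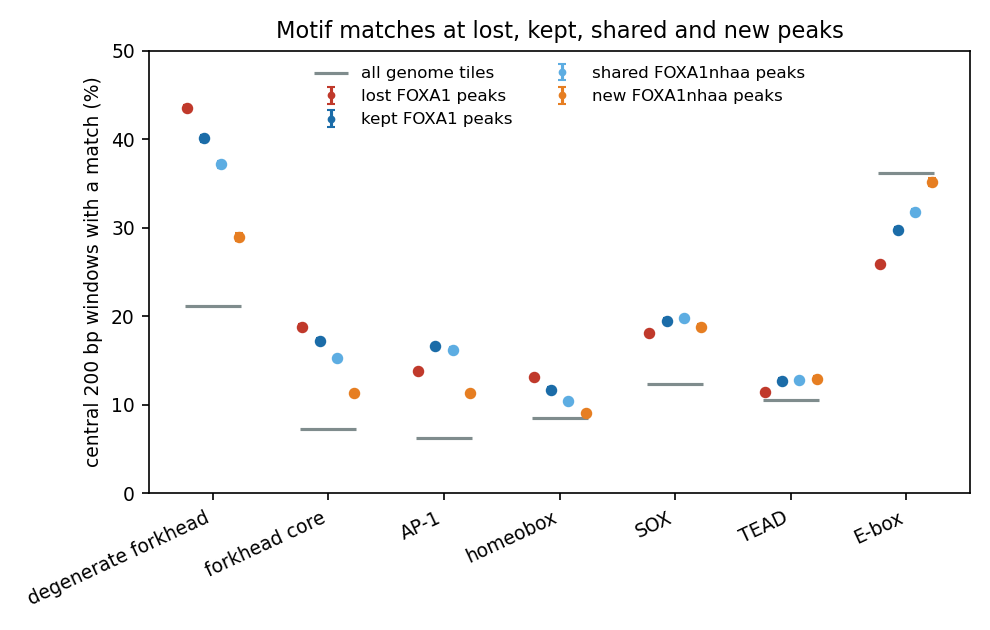
Share of central 200 bp windows (percent) with at least 1 match to each motif at lost, kept, shared and new peaks, with 95% Wilson intervals; grey bars give the share of all 200 bp tiles of the genome. Forkhead matches are lowest at new peaks (11.3% for the core), AP-1 matches are highest at kept peaks (16.6%), and E-box matches are highest at new peaks (35.1%).

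AP-1, the FOS and JUN family factor of fibroblast enhancers, was more frequent at kept than at lost peaks. Its site, TGANTCA, was in 16.6% (16.3 to 16.9) of kept peaks, 13.8% (13.6 to 14.1) of lost peaks and 11.3% (11.0 to 11.6) of new peaks, with 6.27% of genome tiles. FOXA1 peaks without the site were kept in 38.9% (38.7 to 39.2) of cases, those with 1 site in 43.8% (43.1 to 44.4) and those with 2 sites in 49.3% (46.9 to 51.6). Their median scores were 124, 124 and 128 and their median widths 302, 293 and 296 bp. The difference stood in every class of width, with 26.4% (25.2 to 27.6) against 22.4% (21.9 to 22.8) up to 200 bp and 79.6% (77.8 to 81.3) against 72.7% (72.0 to 73.4) over 600 bp. Peaks with an AP-1 site and no core were kept in 44.4% (43.7 to 45.05) of cases and those with both in 43.3% (41.7 to 44.97). Peaks with a core and no AP-1 site were kept in 36.8% (36.2 to 37.4), below the 39.4% (39.1 to 39.7) of peaks with neither.

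Both motifs were centred on the peaks of every class, least so at new ones. Within 60 bp of the centre, lost peaks had 23.6 cores in each 20 bp per 1000 peaks, 2.52 times the density beyond 400 bp. The ratio was 2.13 for kept, 1.77 for shared and 1.46 for new peaks. For AP-1 it was 2.69 for kept, 2.42 for lost, 2.38 for shared and 1.78 for new peaks. The FOXA1 list gives no summits, so its centres are midpoints, while FOXA1nhaa centres are summits. With midpoints in both lists, 11.2% of new peaks held a core.

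**Figure D3:**
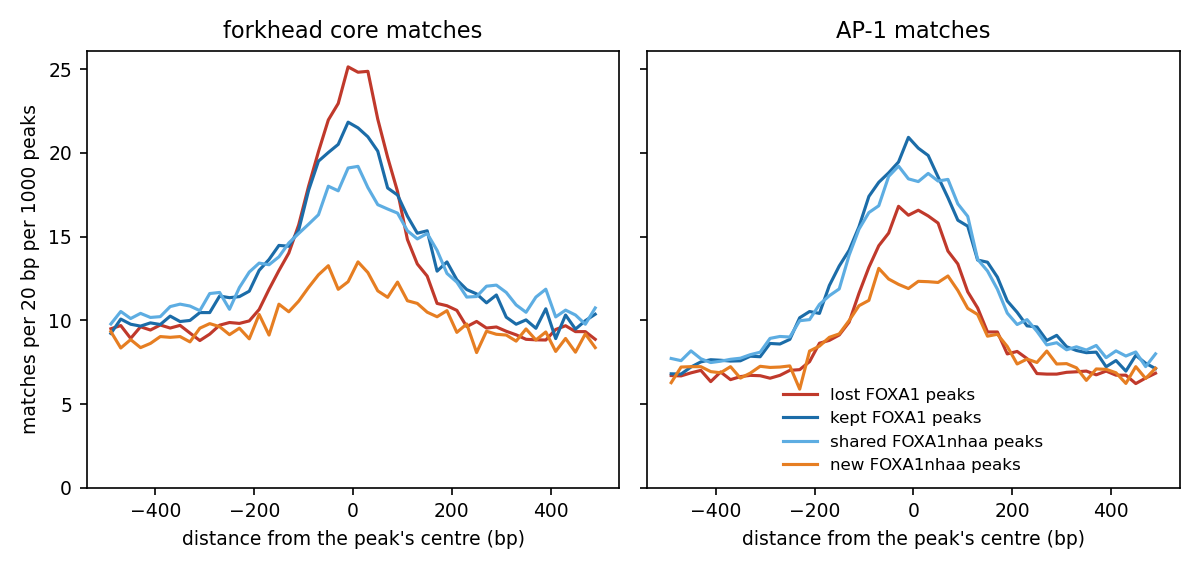
Matches to the forkhead core (left) and AP-1 site (right) in bins of 20 bp by distance from the centre of lost, kept, shared and new peaks, per 1000 peaks. The lost peaks have the highest central density of forkhead cores (23.6 within 60 bp of the centre) and the new peaks the lowest (12.6), while kept peaks lead for AP-1.

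Other motifs differed between the classes in several orders. The E-box CAGNTG, read by TWIST and other helix-loop-helix factors, was in 25.9% (25.6 to 26.2) of lost, 29.7% (29.4 to 30.1) of kept and 35.1% (34.7 to 35.6) of new peaks, next to 36.2% of genome tiles. At GC contents below 35% the order was the same, with 21.96%, 25.1% and 27.8%, and 21.5% of tiles. The SOX letters CATTGT were at 18.1%, 19.5% and 18.8%, all above the 12.4% of tiles. The TEAD site GGAATG was in 11.4% of lost, 12.8% of kept and 12.9% of new peaks (10.6% of tiles). At GC contents from 35% to 40% it was in 14.9%, 15.8% and 13.6% (12.01% of tiles). Peaks with the words that follow were not split by GC content, while tiles were. Below 35% GC, TAATTA was in 17.1% of tiles, CCAAT in 30.1%, runs of 8 A in 15.3% and GGGCGG in 0.130%. The shares of all tiles given next are therefore not matched to the base composition of the peaks. The homeobox core TAATTA was in 13.1%, 11.7% and 9.08% (8.56% of tiles), and the CCAAT box in 31.3%, 26.9% and 21.6% (27.5% of tiles). Runs of 8 A were rarer than in the genome in each class, at 7.98%, 6.51% and 4.82% compared with 11.8%. GC-rich promoter letters were rare, with the SP/KLF site GGGCGG in 0.317% of lost, 0.233% of kept and 0.284% of new peaks and in 2.88% of tiles.

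Among all words of 6 bases, those that told new peaks from kept ones were not forkhead words. GCTGCA, with its reverse complement, was in 16.0% of new and 7.41% of kept peaks, a ratio of 2.16 and the highest of all words held by at least 1% of the new or kept peaks. It was in 9.87% of shared and 5.24% of lost peaks and in 10.9% of genome tiles. At GC contents below 35% the shares were 9.41% of new, 6.92% of shared, 5.35% of kept and 3.89% of lost peaks and 4.67% of tiles, so kept and shared peaks lay above the genome there and below it when all windows were pooled. GCAGCA, which overlaps it on the other strand, was in 18.2% of new, 11.8% of shared, 9.22% of kept and 6.40% of lost peaks, and in 10.7% of tiles. Below 35% GC, GCAGCA was in 11.3%, 8.52%, 6.90% and 4.72%, and in 5.29% of tiles. It was also the word with the highest ratio of kept to lost peaks, 1.44. Both words followed one order, new, shared, kept, lost. GCTGCA was centred at new peaks, with 1.98 times the density beyond 400 bp within 60 bp of the centre, and was depleted at the centre of lost peaks, at 0.534 times. It was in 16.1% (15.8 to 16.5) of new FOXA1_3 peaks and 10.3% (10.0 to 10.5) of shared ones, and midpoints in place of summits left it in 15.6% of new peaks. In the other direction, AAATTT was in 23.8% of lost, 18.4% of kept and 10.6% of new peaks and in 15.5% of tiles. At GC contents below 35% it was in 28.1%, 22.7% and 15.7%, all under the 29.8% of tiles. CCAATA, which holds the CCAAT box, was in 13.5%, 10.6% and 6.49%, with 8.51% of tiles. At GC contents below 35% it was in 13.6%, 10.95% and 6.96%, with 10.86% of tiles, so kept peaks lay near the genome there.

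Most peaks of every class lay in introns, and the variant kept FOXA1 peaks near genes more often than far from them. Of kept peaks 9.59% (9.37 to 9.83) were centred within 1000 bp of an annotated transcription start, compared with 8.39% (8.21 to 8.56) of lost and 7.32% (7.08 to 7.57) of new peaks. Exons beyond those starts held 5.97%, 4.62% and 4.33%, introns 65.8%, 63.9% and 61.4%, and the space between genes 18.6%, 23.1% and 26.9%. By distance to a protein-coding start, 44.9% (43.9 to 45.9) of FOXA1 peaks within 1000 bp were kept, 39.9% (39.4 to 40.3) of those from 5 to 20 kb, and 36.0% (34.8 to 37.3) of those beyond 500 kb. New peaks made up 31.8% (30.7 to 33.0), 38.5% (37.9 to 39.1) and 51.8% (50.3 to 53.3) of the FOXA1nhaa peaks at these distances. The median score of FOXA1 peaks was 128 within 1000 bp and 113 beyond 500 kb.

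New peaks were the larger part of FOXA1nhaa peaks where FOXA1 itself was sparse. In the quintile of 1 Mb windows with the fewest FOXA1 peaks, 73.7% (71.8 to 75.5) of the 2146 FOXA1nhaa peaks were new, and in the quintile with the most, 35.2% (34.8 to 35.7). Fewer FOXA1 peaks in a window leave fewer to meet, and the part of that in the result was not tested. New peaks per Mb went the other way, from 2.75 to 27.4. In windows without a protein-coding gene 51.4% (50.1 to 52.7) were new and 36.9% (35.8 to 38.0) of FOXA1 peaks were kept. In windows with 20 genes or more 41.5% (40.1 to 42.9) were new and 34.5% (33.5 to 35.6) kept. By quintiles of GC content of the windows, from the lowest, 39.7%, 40.8%, 40.2%, 39.8% and 37.2% of FOXA1 peaks were kept. Numbers of FOXA1 and FOXA1nhaa peaks over 2869 windows of 1 Mb had a Pearson correlation of 0.96 and a Spearman correlation of 0.97, as a description over windows that share both libraries.

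Windows with at least 30 FOXA1 peaks kept a median of 40% of them, with quartiles of 34.8% and 44.5%. The highest share was at chr10:86000001-87000000, around CCSER2, where 26 of 40 peaks were kept. The lowest outside the sex chromosomes, chosen after the values were seen, was at chr2:185000001-186000000 around the zinc-finger gene ZNF804A, with 4 of 37. The window with the most lost peaks was chr1:72000001-73000000 in the cell adhesion gene NEGR1, with 201 of 299 lost. The window with the most new peaks was chr2:161000001-162000000, with ITGB6, RBMS1 and TANK, where 52 of 116 FOXA1nhaa peaks were new and 65 of 129 FOXA1 peaks kept.

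Chromosome X stood apart. Only 15.6% (14.2 to 17.2) of its 2222 FOXA1 peaks were kept, compared with 40.1% (39.9 to 40.3) on chromosomes 1 to 22 together, 28.0% (25.3 to 30.8) on chromosome 19 and 22.4% (17.0 to 29.0) of 183 peaks on chromosome Y. On the remaining chromosomes the share lay between 37.9% on chromosome 17 and 41.0% on chromosome 4. Peaks were also sparser and weaker on X. FOXA1 had 14.3 peaks per Mb there and 53.2 on chromosomes 1 to 22, 3.72 times as many, with a median score of 90 compared with 124. FOXA1nhaa had 4.93 and 36.4 per Mb, 7.37 times as many, while the factor was 4.94 for HNF4A and 13.9 for FOXA1dbd. Median widths of FOXA1 peaks were 240 bp on X and 301 bp on chromosomes 1 to 22. At equal score the share kept was lower on X in each quintile, but in the highest the interval on X held the other share. In the lowest quintile by score 8.44% (6.62 to 10.7) of X peaks and 25.6% (25.1 to 26.1) of those on chromosomes 1 to 22 were kept, in quintile 4 24.7% (19.9 to 30.3) and 45.5% (44.9 to 46.0), and in the highest 54.5% (43.5 to 65.2) of 77 and 62.9% (62.4 to 63.5). At equal score and width, the share was lower on X in every class of width outside the highest quintile. In the highest it was 65.7% (49.2 to 79.2) of 35 X peaks and 63.6% on chromosomes 1 to 22 at widths over 400 to 600 bp. Over 600 bp it was 80% (49.0 to 94.3) of 10 and 79.8%, and at each smaller width it was lower on X. Of the FOXA1nhaa peaks on X, 55.7% (52.2 to 59.2) of 766 were new.

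**Figure D4:**
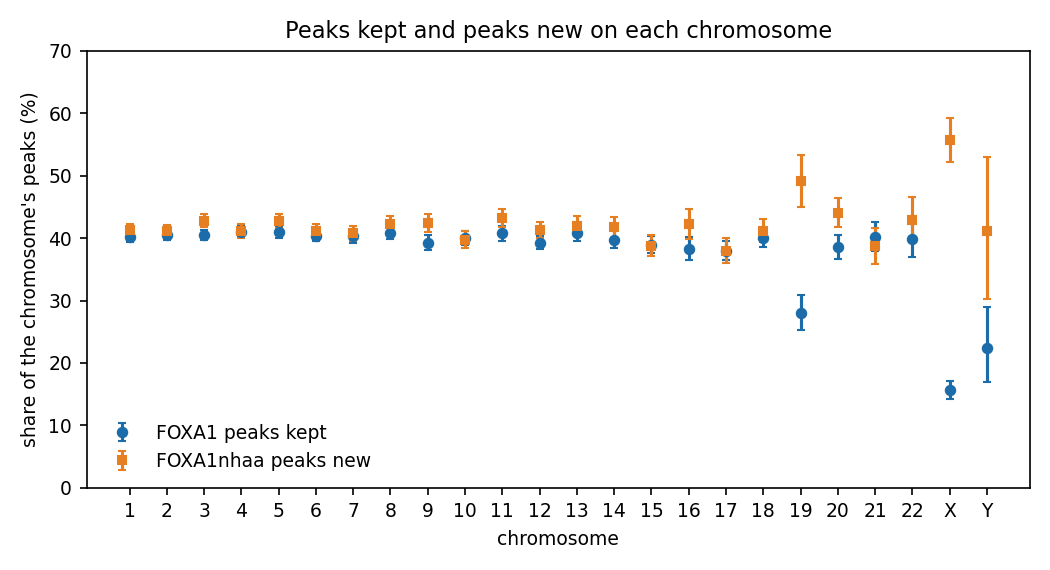
Share of FOXA1 peaks kept (circles) and share of FOXA1nhaa peaks new (squares) on each chromosome, in percent, with 95% Wilson intervals. Chromosome X has 15.6% kept and 55.7% new, chromosome 19 has 28.0% and 49.2%, and chromosomes 1 to 18 keep between 37.9% and 41.0%.

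Genes were described by the peaks in the gene body or within 5 kb of it. Of 20136 protein-coding genes, 12512 had a FOXA1 peak and 9188 of these (73.4%) had a kept one. In 3324 genes (26.6%) every FOXA1 peak was lost, 958 genes had FOXA1nhaa peaks only, and 6666 had neither. Over all peaks at protein-coding genes 41.6% (41.3 to 41.9) of FOXA1 peaks were kept and 37.3% (37.0 to 37.7) of FOXA1nhaa peaks were new. The gene classes below are read against these shares. Lists share a few genes, and a peak in 2 neighbouring genes of a class counts once.

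Fibroblast matrix genes kept more than the average share, while genes of fibroblast transcription factors and of the TGF-beta pathway did not. At 30 genes of the fibroblast matrix 48.5% (43.3 to 53.8) of 342 FOXA1 peaks were kept and 23.3% (18.2 to 29.3) of FOXA1nhaa peaks were new. Of these genes, 25 had a FOXA1 peak and 23 a kept one. COL5A2, a chain of type V collagen, kept 42 of 80, FBN1, the fibrillin of elastic microfibrils, 28 of 60, and COL1A2, a chain of type I collagen, 11 of 17. COL3A1 kept 15 of 29 and had no new peak among 15 FOXA1nhaa peaks. The matrix crosslinking enzyme LOX kept 8 of 12. SPARC and COL6A2 lost all of their 2 peaks and 1 peak. Median score and width of this class were 135 and 320 bp, compared with 127 and 306 bp over all protein-coding genes.

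Targets and partners of YAP, a coactivator that works with TEAD factors, kept 50% (44.01 to 55.99) of 264 FOXA1 peaks, and 26.6% (20.8 to 33.4) of their FOXA1nhaa peaks were new. Long genes of the list gave most of these, and the median share over its genes with a FOXA1 peak was 25%, compared with 37.5% over all protein-coding genes with one. CRIM1 kept 39 of 60, YAP1 itself 24 of 38, TEAD1 23 of 53, PTPN14 20 of 41 and WWTR1 14 of 33. Among the short targets, CCN1 kept 4 of 5 peaks, and CCN2 and F3, the tissue factor gene, each kept 1 of 4. The list's 5 genes that lost every peak had 1 or 2 peaks each. The median score was 141 and the median width 316 bp. Genes of AP-1 subunits and their BACH relatives kept 46.4% (36.8 to 56.3), of which BACH1 gave 24 of 56 and BACH2 13 of 25. Integrins and laminins kept 45.1% (40.8 to 49.5) and collagens 44.6% (40.3 to 48.8). Fibroblast transcription factor genes kept 40.3% (36.4 to 44.3), with 8 of 9 at SNAI2 and 12 of 19 at TWIST1, and 11 of 41 at EBF1. TGF-beta pathway genes kept 39.6% (34.3 to 45.04), from 8 of 14 at the signal transducer SMAD4 to 8 of 31 at the coreceptor TGFBR3 and 3 of 14 at TGFBR2. Genes of histone and DNA modifiers kept 39.9% (34.3 to 45.7), with 27 of 56 at KMT2C and 2 of 23 at KDM6A, which lies on chromosome X. The matrix, YAP, AP-1, integrin and collagen classes were above all protein-coding genes under each of 4 settings of flank and overlap, but often by little. At 5 kb flanks the intervals of the AP-1, integrin and collagen classes held the 41.6% of all protein-coding genes. With 50 kb flanks the matrix class kept 42.8% (38.8 to 46.9), next to 40.5% of all. With centres within 200 bp it kept 37.1% (32.2 to 42.4), next to 34.6%. Both intervals held the share of all protein-coding genes. YAP targets kept 45.8% (40.8 to 50.9) with 50 kb flanks and 39.4% (33.7 to 45.4) with centres within 200 bp. The latter interval also held the share of all protein-coding genes.

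Liver genes and hormone-response genes, which FOXA1 serves in other tissues, kept smaller shares, while the intervals of liver factor and epithelial genes held the share of all protein-coding genes. The intervals of the share new at liver and hormone-response genes also held that of all protein-coding genes. At 28 liver genes 29.2% (19.6 to 41.2) of 65 FOXA1 peaks were kept and 45.7% (30.5 to 61.8) of 35 FOXA1nhaa peaks were new. CPS1, the first enzyme of the urea cycle, kept 6 of 15 and had 6 new peaks, and AFP, fetal alpha-fetoprotein, kept 5 of 9. ALB, encoding albumin, lost all 5 of its peaks and had no FOXA1nhaa peak, as did G6PC1, of glucose release, with 3. TDO2, of tryptophan breakdown, kept 1 of 9. Liver transcription factor genes kept 38.2% (23.9 to 54.96), and 60% (42.3 to 75.4) of their 30 FOXA1nhaa peaks were new, including 5 of 6 at the bile acid receptor gene NR1H4 and both at PROX1. Hormone-response genes kept 31.1% (22.9 to 40.6) of 103, and 47.7% (36.0 to 59.6) of their FOXA1nhaa peaks were new. The estrogen receptor gene ESR1 kept 7 of 24 and had 12 new peaks, and the corepressor gene NRIP1 kept 13 of 25. Epithelial genes kept 39.2% (28.9 to 50.6), and 51.7% (39.2 to 64.1) of their FOXA1nhaa peaks were new, among them 7 of 9 at the splicing regulator ESRP1 and 4 of 6 at GRHL2. Scores and widths were lower at these genes, with medians of 124 and 272 bp at liver genes and 105 and 276 bp at hormone-response genes, and their part in the result was not tested. The liver gene, hormone-response and epithelial classes were below all protein-coding genes under each of the 4 settings. So were others, among them fibroblast factors, histone and DNA modifiers and genes over 500 kb. With centres within 200 bp the interval of liver genes (19.6 to 41.2) held the 34.6% of all protein-coding genes.

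Of the classes listed, those of olfactory receptors and keratins had the largest new shares at 5 kb flanks. Olfactory receptors are odorant receptors of the nose, and keratins form the filaments of epithelial cells. New peaks were 65.7% (56.2 to 74.1) of 105 FOXA1nhaa peaks at olfactory receptor genes, 61.9% (40.9 to 79.2) of 21 at keratin genes, 52.2% (38.1 to 65.9) at cytochrome P450 genes and 50.4% (42.2 to 58.5) of 141 at ZNF genes of chromosome 19. These 4 classes kept 30.7% (23.4 to 39.2), 30.8% (16.5 to 49.99), 32.3% (22.2 to 44.4) and 32.4% (26.6 to 38.8) of FOXA1 peaks. On chromosome 19, where all genes of the ZNF class lie, 28.0% of all FOXA1 peaks were kept. Of all FOXA1nhaa peaks on that chromosome 49.2% were new. The intervals of the ZNF class held these shares, so the class was not set apart from its chromosome. Within gene bodies alone, keratin genes kept 15.4% (4.33 to 42.2). With 50 kb flanks the share new at olfactory receptor genes was smaller, 51.1% (45.6 to 56.6), next to 39.1% at all protein-coding genes. HOX genes had 22 FOXA1 peaks, of which 8 were kept, and none of their 8 FOXA1nhaa peaks was new, while with 50 kb flanks 35.7% (16.3 to 61.2) were. Histone genes kept 32 of 97 FOXA1 peaks and had 10 new peaks of 40, and clustered protocadherin genes, which encode neuronal adhesion proteins, kept 3 of 19 and had 2 new of 5. Forkhead genes other than the FOXA genes kept 38.7% (32.6 to 45.1), with 18 of 28 at FOXJ3 and 27 of 68 at FOXP1. At genes over 500 kb long 46.1% (45.1 to 47.1) of FOXA1nhaa peaks were new, while the share kept, 39.2% (38.4 to 40.1), was close to that of genes under 10 kb, 39.5% (37.6 to 41.5).

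**Figure D5:**
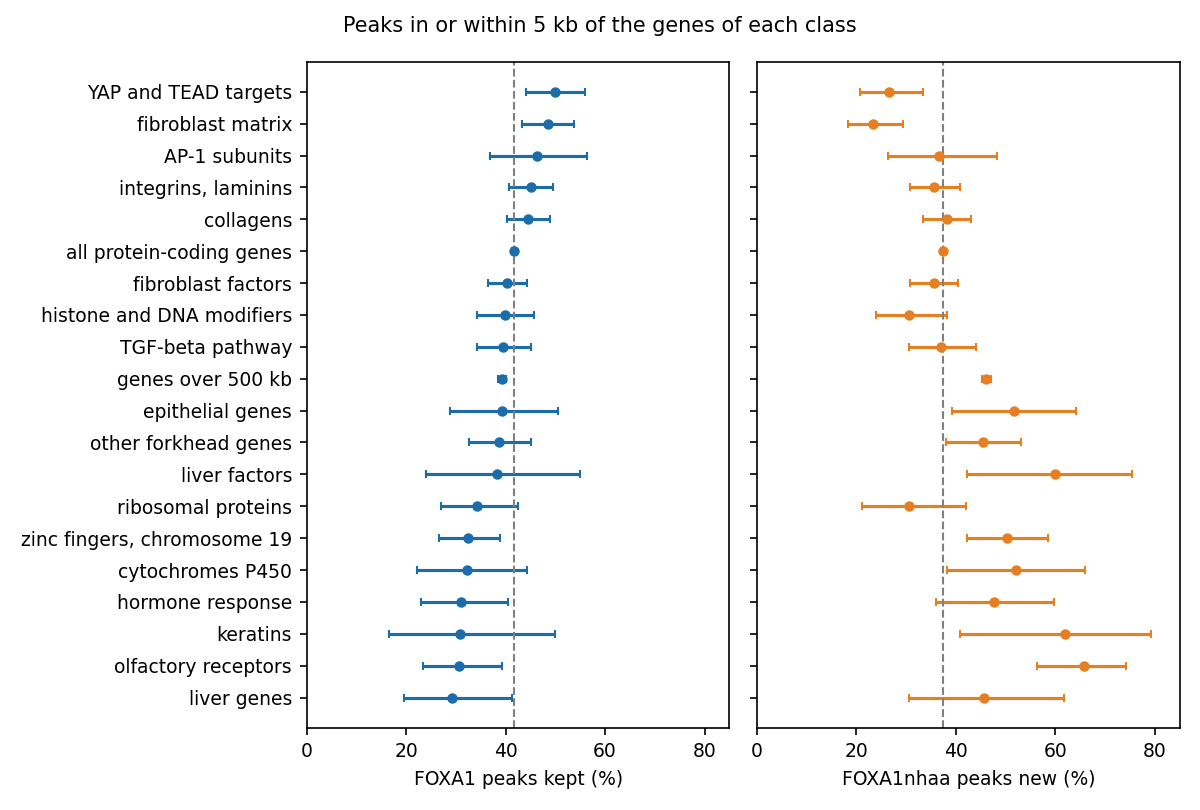
Share of FOXA1 peaks kept (left) and of FOXA1nhaa peaks new (right), in percent with 95% Wilson intervals, at genes of each class; dashed lines give all protein-coding genes (41.6% and 37.3%). YAP targets and fibroblast matrix genes lead on the left (50% and 48.5%), and olfactory receptor and keratin genes have the largest new shares on the right (65.7% and 61.9%).

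Single genes with at least 30 FOXA1 peaks kept a median of 44.1% of them (quartiles 37.5% and 50%, 921 genes). The highest shares were at SEC24D, a vesicle coat gene, with 28 of 38, IKZF2 with 24 of 33, MITF, the melanocyte factor, with 25 of 36, MBNL1, a splicing factor gene, with 55 of 81, and CCSER2 with 25 of 37. The lowest were at 3 genes of chromosome X, among them MID1 with 4 of 30 and DIAPH2 with 11 of 62, and at CCDC7 (7 of 37) and HIBCH (6 of 31). The genes with the most kept, lost or new peaks were long ones. NEGR1 (chr1:71861626-72748222) had 318 FOXA1 peaks, of which 103 were kept and 215 lost, a share kept of 32.4% (27.5 to 37.7). DST, a cytoskeletal linker gene, kept 84 of 148 and DPYD, of pyrimidine breakdown, 91 of 217. MAGI2 had the most new peaks, 59 of 134. TENM4, a teneurin gene, had the highest share new, 17 of 20, and kept 3 of its 20 FOXA1 peaks, followed by CTNNA3, an alpha-catenin gene, with 19 new of 23.

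Among listed genes with a peak at a start, fibroblast genes had both kept and lost ones. INHBA, an activin subunit, had a kept FOXA1 peak with a score of 429 and a FOXA1nhaa peak with a score of 69. WWTR1 had a kept peak with a score of 472, YAP1 one of 495, and FOXJ3 one of 506. FOXP1 had a kept peak with a score of 461 and lost ones with scores of up to 268. Of the matrix genes, DCN, encoding decorin, had a kept peak of 541 and a lost one of 294. LUM, encoding lumican, had a kept and a lost one of 369 each, at chr12:91504739-91505986 and chr12:91504247-91504519. With equal scores, these neighbours may be rows of 1 peak name. The lost peak at LOX had a score of 319, compared with 90 for its kept one, which was 10 bp wide. The lost peak at the matrix protease gene MMP2 had a score of 276. The starts of ZEB2, a repressor of epithelial genes, had 3 kept peaks with scores of up to 328 and 4 lost ones with scores of up to 431. The lost peak at HPX, encoding hemopexin, had a score of 248, that at CDH3 one of 284 and that at ALB one of 101. CYP7A1, the rate-limiting enzyme of bile acid synthesis, and TF, encoding transferrin, had new peaks at a start with scores of 99 and 86 and no FOXA1 peak there.

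The other lists met these classes unevenly. FOXA1dbd peaks, which lie almost wholly inside FOXA1 peaks, overlapped 25.8% (25.5 to 26.2) of kept, 11.7% (11.5 to 11.9) of lost and 0.250% (0.208 to 0.301) of new peaks. HNF4A peaks overlapped 2.23% (2.11 to 2.34), 1.31% (1.24 to 1.39) and 1.40% (1.30 to 1.52), and 62.6% of shared and 6.06% of new rows were also rows of the FOXA1rraa list.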

How the data were processed

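ChIP-seq was measured in BJ fibroblasts producing HALO-tagged FOXA1 or FOXA1nhaa, grouped by the sample titles. The submitters' processing notes name Bowtie2 2.3.4.1, Picard, GATK 4.2.6.0, bedtools 2.27.1, MACS2 2.2.7.1, deepTools 3.5.0 and hg19, without stating how the libraries of a construct were combined. The deposited FOXA1 list holds a score per peak. The deposited FOXA1nhaa list also holds each peak's fold enrichment, which is a ratio, and its p-value and q-value as −log10. Its score, except in 14 rows, was the whole-number part of 10 times the −log10 q-value. These values are the authors' own, and neither list gives counts, so depth and the precision it gives are unknown.

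All rows were used. Every row ended within its GRCh37 chromosome, and GENCODE 44 lifted to GRCh37 gave the genes. Words were searched in the central 200 bp in either orientation, centred on the summit for FOXA1nhaa and on the midpoint for FOXA1, and set beside all 200 bp tiles of the genome without unknown bases. Words of 6 bases were ranked among those held by at least 1% of the peaks compared. Shares have 95% Wilson intervals; no test was made between the lists. The code (Python 3.11.15, numpy 2.4.6, pandas 2.3.3, numba 0.67.0, pysam 0.24.0) was tested on simulated data. Of 295 listed gene symbols 294 were found.

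FOXA1 rows of one peak name were joined into a site, lost if none of its rows was kept; named sites came from the 3 highest-scoring kept sites, lost sites and new FOXA1_3 rows and the highest of each at a protein-coding promoter. Named genes had at least 30 FOXA1 peaks (20 FOXA1nhaa peaks for the share new) and were the 5 highest or lowest by share or number; list members were named beside their class. Some items that met these rules are not reported here. The comparison, lists and rules were chosen with earlier results of these data known. Alternatives were other definitions of overlap, the top 50% of each list, chromosomes 1 to 22, FOXA1_3 rows only, joined FOXA1 rows, windows, promoter distances and flanks. The limit of 100 bp on width, FOXA1_3 rows only for the forkhead core, midpoints for words of 6 bases, the repeated words and the breakdown by prefix were added after the data were seen.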

Additional observations from a re-analysis of the deposited data

How the results depend on the processing

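With an overlap of 50% of the shorter peak, 37.5% of FOXA1 peaks were kept and 44.9% of FOXA1nhaa peaks were new. With centres within 200 bp these were 33.4% and 50.9%, for the top 50% of each list by score 30.5% and 55.5%, for FOXA1_3 rows only 37.2% and 42.8%, and for rows of at least 100 bp 40.2% and 42.3%. On chromosomes 1 to 22 the share kept was 40.1%, and with FOXA1 rows joined by peak name 40.3%.

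With a central window of 100 bp a forkhead core was in 9.34% of kept, 10.5% of lost and 5.69% of new peaks, and the reversed letters in 200 bp were in 19.03%, 20.2% and 15.4%. With centres within 200 bp 11.6% of new peaks held a core, and with FOXA1_3 rows only 16.8% of kept peaks did. Within 2500 bp of a start lay 21.3% of kept, 19.05% of lost and 16.4% of new peaks, and within 1000 bp of protein-coding starts 6.97%, 5.63% and 4.49%. With centres within 200 bp 7.70% of new peaks were at promoters.

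At protein-coding genes the share kept was 41.9% for gene bodies, 40.5% with 50 kb flanks and 34.6% with centres within 200 bp, and the share new was 39.1% with 50 kb flanks. In windows of 100 kb, the share kept was 41.5%, 40.7%, 38.0% and 35.02% in GC quintiles 2 to 5, and the share new was 40.8%, 39.4%, 43.9% and 46.0% in quintiles 1, 2, 4 and 5. With centres within 200 bp and 1 Mb windows, the shares kept were 32.7%, 33.8%, 33.6%, 34.1% and 32.3%, and the shares new 53.4%, 52.0%, 50.4%, 49.6% and 48.8%, from quintile 1 to 5. The share new was thus highest in quintile 5 with 100 kb windows and lowest there with centres within 200 bp, and the cause was not tested.

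The other 23 of the 72 alternative values of these results stayed within their counting intervals, and none changed the order lost, kept, new of the forkhead core. Of the values for single gene classes, 99 stayed within theirs and 16 did not. No paired analysis was possible because there is 1 peak list for FOXA1 and 1 for FOXA1nhaa. Each is held under the sample titled replicate 1, and whether the other library also went into it is not stated. Leaving out a replicate was therefore not possible either. The read depth is unknown, so an absent peak and one under the caller's threshold cannot be told apart.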

Other observations

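On chromosomes 1 to 22 the share kept was slightly lower near chromosome ends. It was 36.8% (34.8 to 38.9) of 2120 FOXA1 peaks within 2 Mb of an end, 38.6% (37.1 to 40.1) of those from 2 to 5 Mb and 40.4% (40.1 to 40.7) of those beyond 20 Mb, and new peaks made up 42.6% (39.9 to 45.2), 44.3% (42.5 to 46.2) and 41.1% (40.8 to 41.5) of FOXA1nhaa peaks there.

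Isolated peaks were kept less often than peaks with a neighbour. Of FOXA1 peaks from 500 to 1000 bp from the next FOXA1 peak 43.5% (42.9 to 44.1) were kept, with a median score of 136, and of those beyond 10000 bp 33.5% (32.9 to 34.1), with a median score of 115. Peaks within 500 bp of the next one were kept in 36.3% (35.4 to 37.2) of cases and had a median score of 108. Of FOXA1nhaa peaks over 10000 bp from the next FOXA1nhaa peak 53.2% (52.6 to 53.7) were new.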
